A study of Homo sapiens with 2 samples.

Results

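The genes described here were the expressed protein-coding genes of a segment of the long arm of chromosome 1, bands 1q32 to 1q41, which runs on GRCh37 from 203764751 to 222841349 and spans 19.1 Mb. They were selected by position and read level: a protein-coding gene had to lie wholly within the segment and to have at least 50 reads in the parental and the CARM1 KO library together. Of 57736 gene identifiers in the count table, 118 were protein-coding genes of the segment, of which 19 had no read in either library and 22 had 1 to 49 reads. The other 77 passed the minimum, 9 of them were left out by name, and 68 remained. The segment itself was picked from earlier results of these data, where the fold changes of neighbouring genes were low together. Its lower level in CARM1 KO cells was thus used in the choice and is given as a description.

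A1847 is a human ovarian cancer cell line with a high level of CARM1, an arginine methyltransferase that methylates histones and chromatin remodelling proteins. Total RNA of the parental control cells, which carry wild type CARM1, was sequenced as 1 library, and so was that of CARM1 KO cells, a single clone made with a lentiviral CRISPR vector and a guide RNA against CARM1. The sample labels give the genotype and name no drug treatment. The paper used puromycin to select cells that took up viruses with a resistance gene. The libraries thus differ by the knockout, by the vector and any such selection, and by whatever separates 1 clone from the population it came from. With 1 library per group there was no replicate check, and no test was made.

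Genes of this segment share a chromosome stretch and not a pathway. Its 1q32 part holds the cluster of complement regulators, cell surface and plasma proteins that keep complement from attacking the body's own cells, and its 1q32 to 1q41 part holds genes for DNA replication control, chromosome segregation, protein kinases and phosphatases, and the enzymes that charge transfer RNAs. Many of these genes are used by every dividing cell, while others, such as the transcription factor genes BATF3 and HLX, are used in few tissues.

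Sequencing gave 30741953 reads in parental cells and 32300391 in CARM1 KO cells. CARM1 itself, on chromosome 19, had 975 reads in parental cells and 380 in CARM1 KO cells, 2.62-fold lower (95% interval 2.33 to 2.97). Part of its RNA was therefore still present in the CARM1 KO library. The paper presents the clone as a knockout with immunoblots of CARM1 protein, which RNA reads do not measure. The 9 epithelial markers had 43943 summed reads in parental cells and 151486 in CARM1 KO cells. Most of these were of KRT8 (17600 and 70370 reads) and KRT18 (21154 and 51223 reads). MUC16 (0 and 1 reads) and WT1 (8 and 1 reads) were at or near 0 in both libraries, and CDH1 (3 and 53 reads) was near 0 in parental cells. The 5 fibroblast markers had 31274 summed reads in parental cells and 543 in CARM1 KO cells, with COL1A2 (16732 and 3 reads) and PDGFRA (14326 and 2 reads) lower and COL1A1 (131 and 537 reads) higher in the latter. The 3 leukocyte markers had 8 and 13 summed reads and the 2 endothelial markers found had 1 and 2. The part of these differences in the values of the segment was not tested.

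Most genes of the segment had fewer reads in CARM1 KO cells. Fold changes compare counts scaled by the trimmed mean of M values (TMM), which corrects for library size and composition, with 0.5 read added to each count, and log2 values below 0 mean lower in CARM1 KO cells. By sign, 53 of the 68 genes were lower and 15 were higher. Over 1.5-fold lower were 39 genes (57.4%), where 23.4% of all 12522 protein-coding genes at or over the read minimum were, and over 1.5-fold higher were 14 genes (20.6%), where 27.4% of all genes were. Over 3-fold lower were 11 genes (16.2%), beside 7.39% of all genes, and over 3-fold higher were 12 genes (17.6%), beside 11.1% of all genes. These shares come from the contrast on which the segment was picked, and nothing is read from their distance to the background.

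The median log2 fold change of the 68 genes was -0.78, with quartiles of -1.43 and -0.08, and that of all protein-coding genes was 0.03. Together the 68 genes had 164979 reads in parental cells and 92146 in CARM1 KO cells. Levels are given as scaled CPM, the reads of a gene per fixed number of reads in the scaled library. In bulk RNA, fewer cells that express a gene and less RNA per cell cannot be told apart. Exact binomial intervals, which cover counting error only, lay wholly below 0 for 48 genes and wholly above 0 for 14. The interval lay wholly past 1.5-fold for 36 of the genes that were lower and for all 14 of those over 1.5-fold higher. The exons of 25 of the 68 genes overlap those of another gene. The median half-width of the interval was 0.16 on the log2 scale, so for most of the genes the counts gave a fold change that was precise for this pair of libraries.

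**Figure D1:**
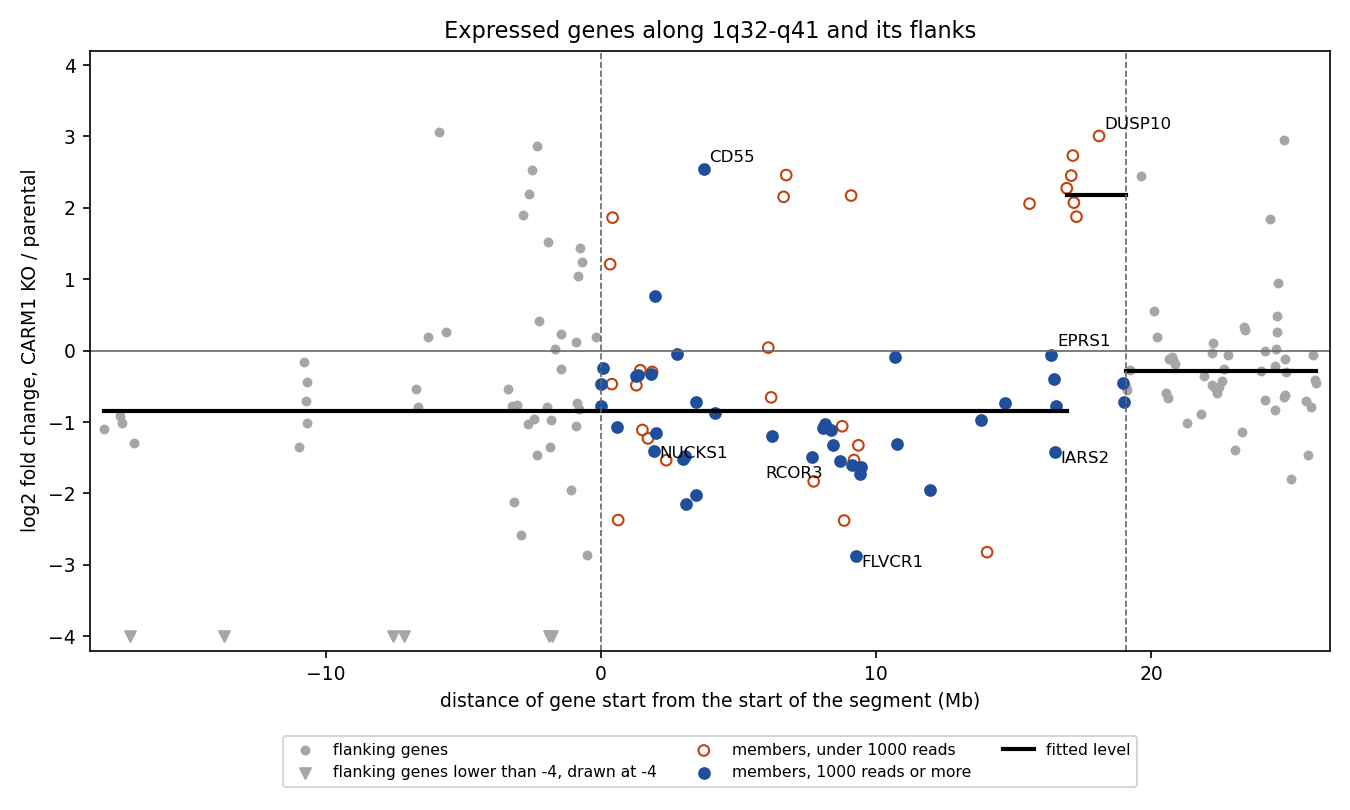
Log2 fold change of CARM1 KO over parental (vertical axis) of the 68 expressed genes of the segment and of 50 flanking genes on each side, at the distance of the gene start from the start of the segment in Mb (horizontal axis). Filled points are genes with 1000 reads or more, open points genes with fewer, grey points flanking genes, triangles flanking genes lower than -4, black lines the fitted levels and dashed lines the ends of the segment, and the fitted level goes from -0.85 to 2.17 at MARK1 and to -0.29 past MIA3.

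Shift edges were looked for by fitting constant levels to the log2 fold changes of the 68 genes and of 50 expressed genes on each side, in chromosome order, with at least 8 genes to a stretch. The fit placed 2 edges. The first lay between RAB3GAP2, which ends at 220445871, and MARK1, which starts at 220701478, and the second between MIA3, which ends at 222841349, and AIDA, which starts at 222841355. The fitted level was -0.85 over the 110 genes from HMCN1 to RAB3GAP2, 2.17 over the 8 genes from MARK1 to MIA3 and -0.29 over the 50 genes from AIDA to URB2. Adding another edge lowered the summed deviation by 2.57%, under the 3% that was required.

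No edge was fitted at the centromeric end of the segment. The 50 genes before it, from HMCN1 to ATP2B4, had a median of -0.78, and 29 of them were over 1.5-fold lower and 9 over 1.5-fold higher. On that side the nearest gene was ATP2B4, a plasma membrane calcium pump, with 1313 and 1533 reads (0.19), and beyond it BTG2, an antiproliferative p53 target, with 581 and 81 reads (-2.87) and the adenosine receptor gene ADORA1 with 31 and 76 reads (1.25). Inside the end, ZC3H11A, a zinc finger protein of mRNA export, had 11206 and 8327 reads (-0.46), and SNRPE, a core spliceosomal protein, had 5289 and 4569 (-0.25). ZBED6, a transcription factor encoded within the ZC3H11A gene, had 1307 and 779 reads (-0.78), and their exons overlap, so the division of reads between them is uncertain. The 3 genes outside this end were spread more widely than the 3 inside it, and the medians of flank and segment did not differ to 2 decimals.

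At the telomeric end the values were close on both sides. MIA3, which loads collagen into transport carriers at the endoplasmic reticulum, had 4881 reads in parental cells and 3033 in CARM1 KO cells (-0.72), and TAF1A, a subunit of the RNA polymerase I factor SL1, had 1245 and 930 (-0.45). Beyond the end, AIDA, an axin-binding protein, had 2949 and 2118 reads (-0.51), BROX, a Bro1-domain protein, had 3689 and 2566 (-0.56) and DISP1, which releases Hedgehog ligands, had 111 and 94 (-0.27). The position of this edge depended on the least number of genes to a stretch: with at least 5 in place of 8 it fell between DUSP10 and TAF1A and left a stretch of 6 genes at 2.36. The 50 genes past the end had a median of -0.29, with 15 over 1.5-fold lower, 4 over 1.5-fold higher and 1 over 3-fold lower.

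At the first edge, the nearest genes before it had many reads and those just after it had few. Before it, IARS2, the mitochondrial isoleucyl-tRNA synthetase, had 10364 and 3968 reads, 2.67-fold lower (95% interval 2.58 to 2.77). RAB3GAP2, a regulator of RAB3 and RAB18, had 4683 and 2797 reads (-0.78), and BPNT1, a phosphatase of sulfate metabolism, had 1871 and 1453 (-0.40). After it came 6 neighbouring genes over 1.21 Mb, from 220701478 to 221915431, of which each was over 3-fold higher in CARM1 KO cells. They held 293 reads in parental cells and 1564 in CARM1 KO cells in all, and none reached 100 reads in parental cells.

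MARK1, a microtubule affinity-regulating kinase, had 85 and 423 reads (2.27). C1orf115 had 83 and 467 reads (2.45). The paired genes MTARC2 and MTARC1 encode mitochondrial amidoxime-reducing enzymes. MTARC2 had 30 and 207 reads, 6.64-fold higher (95% interval 4.58 to 10.2), and MTARC1 had 66 and 286 (2.07). HLX, a homeobox factor, had 14 and 54 reads (1.88). DUSP10, a phosphatase of the stress kinases p38 and JNK that lies at 221874766 to 221915431, had 15 reads in parental cells and 127 in CARM1 KO cells, 8.03-fold higher (95% interval 4.83 to 15.2), and was the highest of the 68 genes. HLX and DUSP10 had under 25 reads in parental cells and passed the read minimum through the CARM1 KO library.

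Placed on the 68 genes in order, the values formed further runs, whose borders were chosen after the values were seen. The 15 genes from ZC3H11A to SLC45A3, over 1.88 Mb, had a median of -0.36, with 4 over 1.5-fold lower and 2 higher. The 2 higher were ETNK2 and PLEKHA6, and PLEKHA6 had 132 and 493 reads (1.86). PLEKHA6 was the only gene of the role list of cell adhesion and axon proteins to pass the read minimum. The next 10, from NUCKS1 to YOD1 over 1.57 Mb, had a median of -1.44, with 8 over 1.5-fold lower and 1 higher. The 7 genes from CD55 to HHAT were mixed, 3 over 1.5-fold lower and 3 higher, with a median of 0.04. The longest run was that of 21 genes over 6.61 Mb from RCOR3 (start 211431719) to SPATA17 (end 218045038), with a median of -1.49 and quartiles of -1.72 and -1.09. In it 19 genes were over 1.5-fold lower, 8 of them over 3-fold, and the exceptions were SMYD2 and BATF3. The 6 genes from RRP15 to RAB3GAP2 had a median of -0.56, with 3 over 1.5-fold lower and 1 higher.

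The borders of this long run were not edges of the fit described above, and other settings placed edges at or near them. With at least 200 reads a gene, the edges fell between HHAT and RCOR3 and between GPATCH2 and RRP15, and the fitted levels were -0.77 before, -1.51 over 18 genes and -0.38 after. With at least 15 genes to a stretch they fell between HHAT and RCOR3 and between SPATA17 and RRP15, with a level of -1.49 over the 21 genes of the run. The left edge moved under other settings that kept a middle stretch. Among genes without exon overlap it lay between G0S2 and UTP25, with a level of -1.53 over 17 genes up to GPATCH2, and with at least 1000 reads, a minimum chosen after seeing the data, between SRGAP2 and EIF2D, with -1.40 over 22 genes. Of the 16 settings, the fit described above included, 11 placed an edge between RAB3GAP2 and MARK1, 3 between GPATCH2 and RRP15, 2 between HHAT and RCOR3 and 1 between SPATA17 and RRP15. The other scalings shift every value alike and the setting fixed at 2 edges repeats that fit, so these could not move an edge. The edge between RAB3GAP2 and MARK1 was absent at 200 reads or more, at 1000 reads or more and without exon overlap. It was absent too with at least 15 genes to a stretch and with 100 flanking genes. The fit at 200 reads or more held 4 of the 6 genes after RAB3GAP2 that were over 3-fold higher, without HLX and DUSP10, and at 1000 reads or more it held none of them.

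Several genes of unlike function in the long run had values near its median. RCOR3, a CoREST family corepressor, had 1029 and 375 reads (-1.49). PPP2R5A, a regulatory subunit of protein phosphatase 2A, had 2312 and 807 (-1.55). RPS6KC1, a ribosomal protein S6 kinase-like protein, had 1652 and 548 (-1.63), and ANGEL2, an RNA phosphatase of the CCR4 family, had 2427 and 753 (-1.72). FLVCR1, the plasma membrane transporter of choline and heme, at 213031617 to 213072705, had 2072 reads in parental cells and 288 in CARM1 KO cells, 7.36-fold lower (95% interval 6.51 to 8.36), and was the lowest of the 68 genes. SPATA17, a testis-associated gene, had 148 and 21 reads (-2.82). At the other extreme of the run, BATF3, a factor of dendritic cell development, had 15 and 71 reads (2.17), and SMYD2, a lysine methyltransferase, had 1216 and 1169 (-0.09) with an interval that spans 0.

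**Figure D2:**
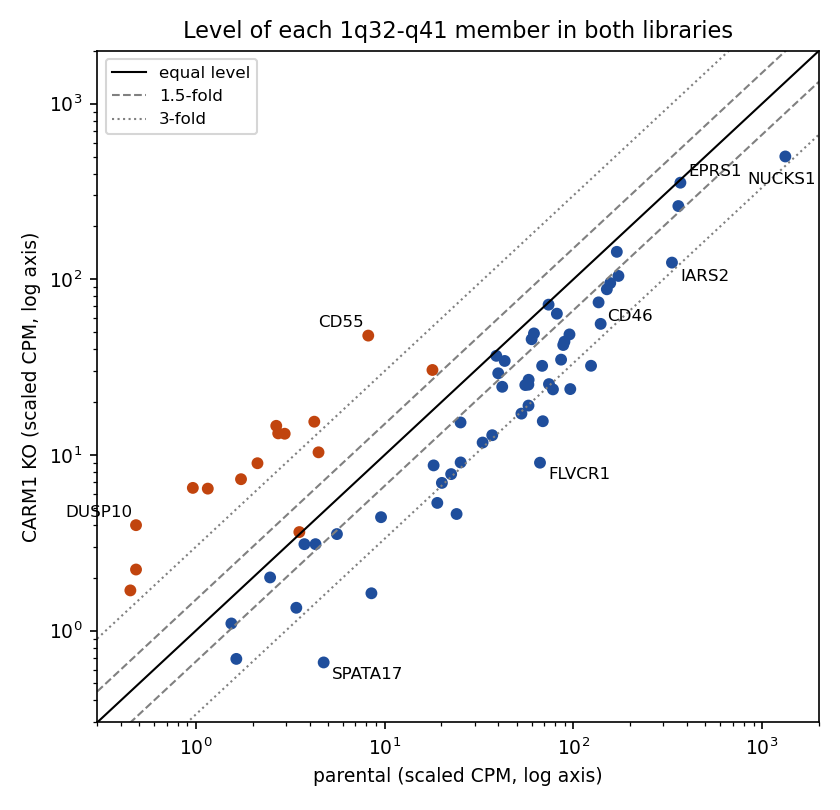
Level of each of the 68 genes in parental (horizontal axis) and CARM1 KO cells (vertical axis), in scaled CPM on log axes, with a point for each gene, orange where higher and blue where lower in CARM1 KO cells, and lines for equal level, 1.5-fold and 3-fold. NUCKS1 lies furthest to the right at 1327 and 500.3 scaled CPM, and the orange points lie in the left part of the plot, with RAB29 the furthest to the right of them at 17.9 and 30.5.

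Per kilobase of exon, NUCKS1, a nuclear chromatin-binding protein, had the highest level in parental cells, 206 scaled CPM per kb, and 77.6 in CARM1 KO cells. SNRPE followed with levels of 81.7 and 68.9, IARS2 with 80.5 and 30.1, and EPRS1, the bifunctional glutamyl-prolyl-tRNA synthetase, with 69.3 and 66.6. The order of these 4 genes therefore changed between the libraries, with IARS2 and NUCKS1 lower by over 2.5-fold while SNRPE and EPRS1 were within 1.5-fold. EPRS1 and IARS2 lie next to one another but for BPNT1, and EPRS1 had 11488 and 11309 reads (-0.06), so the fold changes of close genes were not even.

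The direction went with the read level. Among the 23 genes with 3000 reads or more in both libraries together, all 23 were lower in CARM1 KO cells, from -2.02 to -0.04, with a median of -0.97, and 16 (69.6%) were over 1.5-fold lower. Of the 4143 protein-coding genes of the genome in that class, 2067 were lower and 2076 higher, and 17.5% were over 1.5-fold lower. Among the 17 genes with 1000 to 2999 reads the median was -1.15, with 15 lower, beside a median of -0.02 over all genes of the class. The 20 genes with 200 to 999 reads were divided evenly, 10 lower and 10 higher, with a median of -0.12. The 8 genes with 50 to 199 reads had a median of -0.39, where all genes of that class had 0.36. In the same top class, the 20 centromeric flanking genes had a median of -0.77 and the 29 telomeric ones -0.41.

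**Figure D3:**
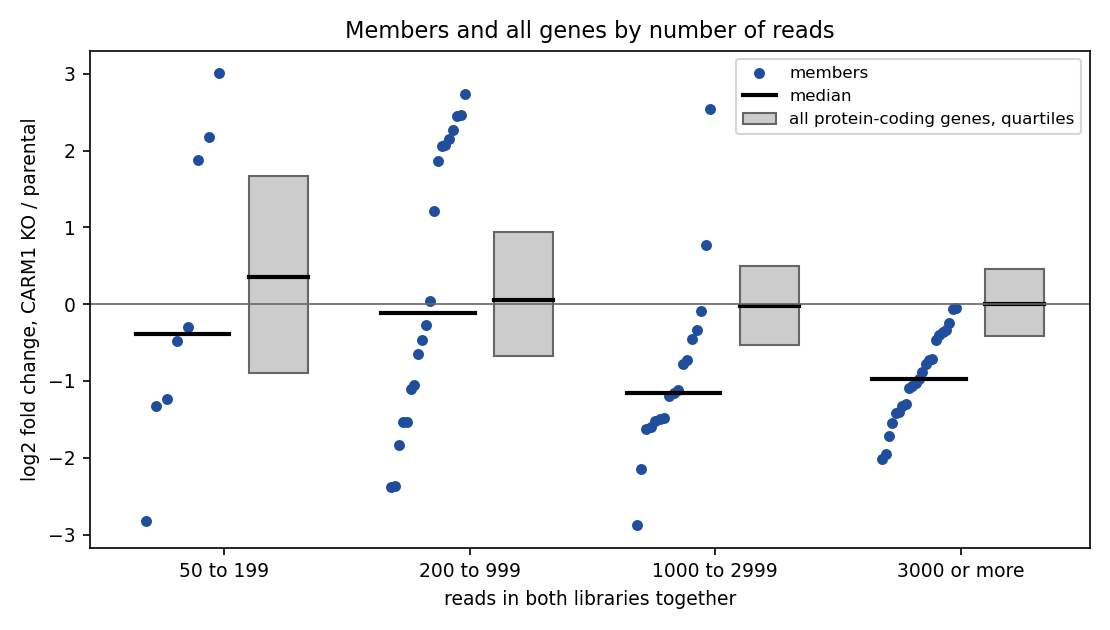
Log2 fold change of CARM1 KO over parental (vertical axis) by class of reads in both libraries together (horizontal axis), with a blue point for each gene of the segment, a black bar for the median, and a grey box for the quartiles of all protein-coding genes of the class. Every one of the 23 genes with 3000 reads or more is below 0, and the class of 200 to 999 reads holds 10 genes on each side.

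By role, the groups with a median furthest below 0 were the signal adaptors, the cell cycle genes, the RNA processing genes and the kinases and phosphatases. The lists were made with results of these data known, so their counts are descriptions beside the 23.4% and 27.4% of all genes. Their names are loose. The list named for signal adaptors also holds a channel regulator, a deubiquitinase and a secreted factor, and the cell cycle list holds INTS7, of small nuclear RNA processing.

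All 5 genes listed for cell cycle and chromosome segregation were over 1.5-fold lower, with a median of -1.32. DTL, the substrate receptor that sends CDT1 and p21 to degradation, had 4343 reads in parental cells and 1777 in CARM1 KO cells, 2.50-fold lower (95% interval 2.37 to 2.65). NEK2, a centrosomal kinase, had 2127 and 1025 (-1.09), and NSL1, a kinetochore subunit of the MIS12 complex, had 1801 and 609 (-1.60). INTS7, whose Integrator complex processes small nuclear RNAs, had 1804 and 854 (-1.11). FAM72A had 626 and 221 reads (-1.53), and its count is uncertain because the genome holds near-identical copies of it.

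Of the 14 kinases, phosphatases and their subunits, 11 were over 1.5-fold lower, 2 higher and 1 within 1.5-fold, with a median of -1.17. MAPKAPK2, the kinase downstream of p38, had 2144 reads in parental cells and 496 in CARM1 KO cells, 4.42-fold lower (95% interval 4.01 to 4.89). PIK3C2B, a class II phosphoinositide 3-kinase, had 265 and 52 reads (-2.37). PPP1R15B, which directs protein phosphatase 1 to eIF2 alpha, had 2751 and 1347 (-1.06), and PTPN14, a tyrosine phosphatase that restrains YAP, had 2680 and 1112 (-1.30). The genes on the other side were MARK1 and DUSP10, and DSTYK was within 1.5-fold with 1347 and 1093 reads (-0.34). MAPKAPK2 and DUSP10, which act on the same p38 pathway, thus differed in direction.

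Among the 7 genes of RNA processing and translation, 5 were over 1.5-fold lower and none was higher, with a median of -1.20. Besides IARS2, EPRS1, SNRPE and ANGEL2 they included RRP15, which matures ribosomal RNA, with 5395 and 3331 reads (-0.73). EIF2D, a non-canonical initiation factor, had 1157 and 413 (-1.52) and UTP25, of the small subunit processome, had 1798 and 801 (-1.20). The most highly expressed of these genes thus ran from 1.04-fold lower for EPRS1 to 2.67-fold lower for IARS2.

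Of the 6 genes listed as signal adaptors and death regulators, 5 were over 1.5-fold lower, 4 of them over 3-fold, with a median of -1.89. KCTD3, a potassium channel regulator, had 3862 reads in parental cells and 1026 in CARM1 KO cells, 3.85-fold lower (95% interval 3.60 to 4.13). YOD1, a deubiquitinase of protein quality control, had 2998 and 756 (-2.02), and its exons overlap those of PFKFB2. NENF, a secreted neurotrophic factor, had 749 and 147 (-2.38), and TRAF5, an adaptor of tumor necrosis factor receptors, had 592 and 170 (-1.83). KISS1, the metastasis suppressor, was within 1.5-fold with 134 and 99 reads (-0.47).

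The 12 genes of chromatin and transcription were mixed, 4 over 1.5-fold lower, 3 higher and 5 within, with a median of -0.41. NUCKS1, at 205681950 to 205719310, had 41322 reads in parental cells and 15951 in CARM1 KO cells, 2.65-fold lower (95% interval 2.60 to 2.70), the most reads of any gene of the segment. RBBP5, a core subunit of the MLL methyltransferase complexes, had 2546 and 2031 (-0.36), and GPATCH2, a nuclear G-patch protein, had 2969 and 1548 (-0.97). The genes over 1.5-fold higher were HLX, BATF3 and SERTAD4, of which the last had 92 and 421 reads (2.15), and all 3 were among the genes of few reads.

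Transporters and metabolic enzymes were also mixed, 4 of 12 over 1.5-fold lower and 5 higher, with a median of -0.13. LPGAT1, a lysophospholipid acyltransferase, had 2792 and 1407 reads (-1.02), and SLC41A1, a magnesium transporter, had 1732 and 797 (-1.15). HHAT, which palmitoylates Hedgehog ligands, had 36 and 205 reads, 5.50-fold higher (95% interval 3.89 to 8.16). LYPLAL1, a lysophospholipase-like hydrolase, had 54 and 232 (2.06), and ETNK2, an ethanolamine kinase, had 139 and 330 (1.21). Among the 4 trafficking genes, MIA3 and RAB3GAP2 were over 1.5-fold lower, SRGAP2, a brake on RAC1, had 2301 and 2286 reads (-0.04), and RAB29, a GTPase that recruits LRRK2, had 558 and 971 (0.76). SRGAP2 has near-identical copies in the genome, so its count is uncertain.

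Of the 12 listed complement regulators and immune receptors, 2 passed the read minimum, and they differed in direction. CD55, decay-accelerating factor, lies at 207494864 to 207560149 and had 255 reads in parental cells and 1524 in CARM1 KO cells, 5.83-fold higher (95% interval 5.11 to 6.69). CD46, membrane cofactor protein, lies at 207925382 to 207968858 and had 4234 and 2356 reads, 1.84-fold lower (95% interval 1.75 to 1.94). Per kilobase of exon CD46 was the higher in parental cells, at 8.77 against 0.80 scaled CPM, and in CARM1 KO cells the levels were 4.77 for CD46 and 4.66 for CD55. These levels depend on the lengths used, the exonic bases of all transcripts, 15505 for CD46 and 10254 for CD55. The exons of CD46 also overlap those of MIR29B2CHG. The pair shares a gene cluster and a function, and in parental cells their levels differed far more than in CARM1 KO cells.

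**Figure D4:**
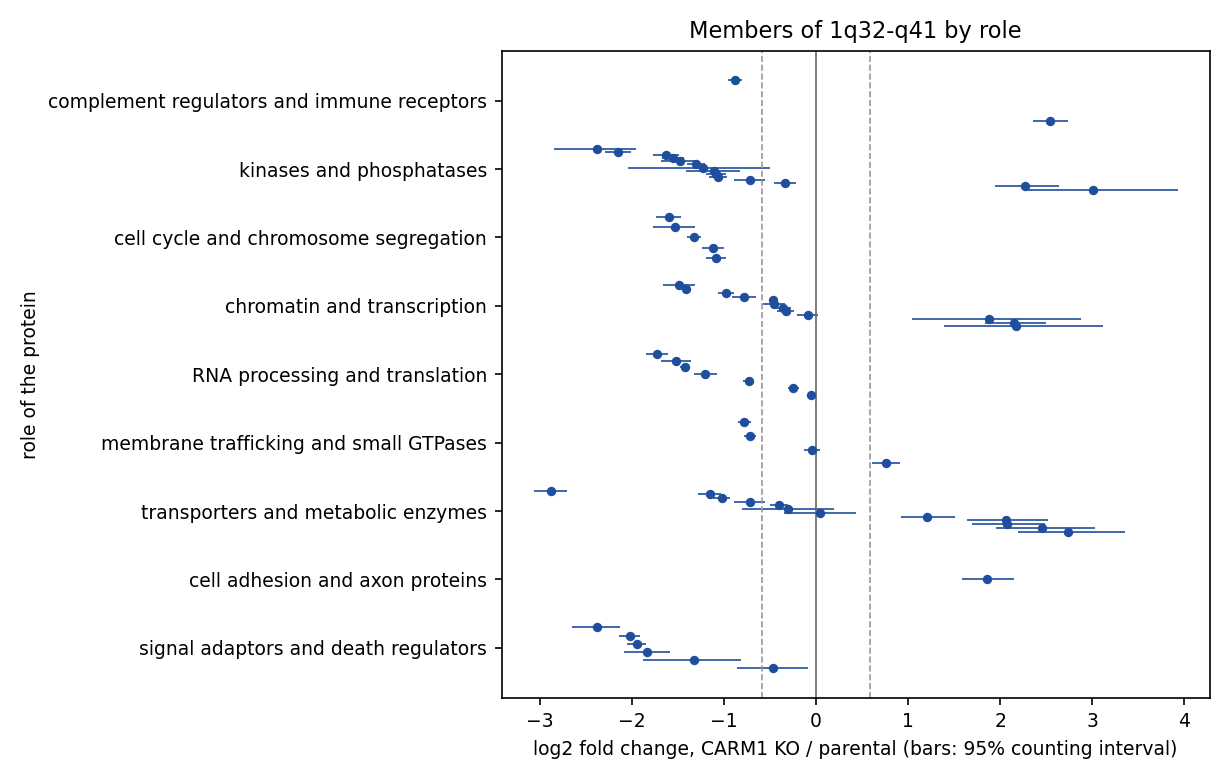
Log2 fold change of CARM1 KO over parental (horizontal axis) of each gene of the segment in a role group (vertical axis), with a bar for its 95% counting interval, dashed lines at 1.5-fold and a solid line at 0. All 5 genes of the cell cycle list lie beyond the dashed line on the lower side, and CD55 and CD46 lie beyond the dashed lines on opposite sides.

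Neighbouring genes were not closer in value than neighbours elsewhere in the genome. Over the 67 adjacent pairs of the segment the median absolute difference in log2 fold change was 0.92, and over 12499 adjacent pairs of all protein-coding genes it was 0.80. Among genes with 1000 reads or more it was 0.64 over 39 pairs of the segment and 0.59 over 7473 pairs of the genome. These are descriptions of 1 pair of libraries.

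In 4 pairs the genes of the segment have RefSeq starts on GRCh38.p14 within 1000 bases of each other, in opposite directions. This places both starts in a shared stretch. The stretch between the starts is shown for 3 of the pairs because it is the DNA that the neighbours have in common, while their differences in fold change ran from 0.07 to 1.85 on the log2 scale. The sequences are from RefSeq on GRCh38.p14, plus strand, chr1:212035558-212035747 for INTS7 and DTL (190 bases), chr1:212791778-212791893 for NSL1 and TATDN3 (116 bases), and chr1:217631094-217631343 for GPATCH2 and SPATA17 (250 of 253 bases). The first gene of each pair reads leftward and the second rightward, and capitals mark letters of the CCAAT box, the GC box (GGGCGG), the E2F sites (TTTGGCGC or else TTTCGCGC), the cyclic AMP response element (TGACGTCA) and the TATA box (TATAAA), or of their reverse complements.
INTS7-DTL: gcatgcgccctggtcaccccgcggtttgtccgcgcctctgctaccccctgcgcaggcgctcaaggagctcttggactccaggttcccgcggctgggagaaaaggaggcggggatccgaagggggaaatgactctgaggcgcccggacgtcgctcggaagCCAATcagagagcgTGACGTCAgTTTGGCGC
NSL1-TATDN3: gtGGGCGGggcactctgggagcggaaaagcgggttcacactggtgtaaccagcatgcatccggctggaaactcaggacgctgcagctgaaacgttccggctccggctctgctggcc
GPATCH2-SPATA17: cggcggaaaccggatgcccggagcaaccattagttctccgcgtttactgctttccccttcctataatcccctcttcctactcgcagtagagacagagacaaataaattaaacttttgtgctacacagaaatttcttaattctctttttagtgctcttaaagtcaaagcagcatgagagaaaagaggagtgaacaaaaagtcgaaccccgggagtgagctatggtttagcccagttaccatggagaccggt

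NSL1 and TATDN3, a TatD-like nuclease, had 1801 and 609 and 701 and 248 reads, with log2 fold changes of -1.60 and -1.53 that differed by 0.07. Their stretch holds 1 GC box, GGGCGG. INTS7 and DTL had log2 fold changes of -1.11 and -1.32 that differed by 0.21, and their stretch holds 1 CCAAT, 1 cyclic AMP response element and 1 E2F site (TTTGGCGC), all within its end nearest DTL. GPATCH2 and SPATA17 differed by 1.85, with 2969 and 1548 reads for GPATCH2 and 148 and 21 for SPATA17, and their stretch holds none of the 6 motifs. In GENCODE on GRCh37 the exons of INTS7 and DTL overlap by a few bases, so the stretch between their starts is that of RefSeq only. FAM72A and SRGAP2 make up the pair not shown, and both counts are uncertain. On GRCh37, used to place the genes, they are not such a pair. There both lie on the plus strand, with FAM72A ending at 206155151 and SRGAP2 starting at 206516200.

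RefSeq promoter windows, from 250 bases before to 50 after the start, were found for 60 of the 68 genes and were searched on both strands for the same letters. GGGCGG was in 39 of the 60 (65%) and in 45.0% of all 35116 windows, which include noncoding genes. CCAAT was in 26 (43.3%) and in 34.6% of all windows. TTTGGCGC was in 3 (5%) and in 0.652% of all windows, TTTCGCGC in 1 (1.67%) and in 0.515%, TGACGTCA in 2 (3.33%) and in 1.85%, and TATAAA in 4 (6.67%) and in 11.5%. These shares describe letters in a window and not bound factors. The windows of INTS7 and DTL overlap, so the 1 TTTGGCGC and the 1 TGACGTCA between their starts were each counted for both genes. They account for 2 of the 3 windows with TTTGGCGC and for both windows with TGACGTCA.

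Genes of the segment that are not protein-coding numbered 6 at the same read minimum, with a median of -0.69, 4 of them over 1.5-fold lower and 1 higher. The interval lay wholly below 0 for 3 of them and wholly past 1.5-fold lower for 2. No share over all noncoding genes was computed, so nothing is read from these counts. FLVCR1-DT, a transcript divergent from FLVCR1, had 104 reads in parental cells and 7 in CARM1 KO cells (-3.83), in the same direction as FLVCR1. LINC00467, a long noncoding RNA inside the run from RCOR3 to SPATA17, had 270 and 105 reads (-1.39). SERTAD4-AS1 had 22 and 52 reads (1.19) and overlaps SERTAD4, and since the use of strand in counting is not stated, the reads of one and the other cannot be told apart.

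The 9 genes left out by name had a median of 0.01. Within the run from RCOR3 to SPATA17 lay 4 of them, and they were spread widely. ESRRG, an orphan nuclear receptor, had 1178 and 40 reads (-4.90), and CENPF, a kinetochore protein, had 23008 and 9633 (-1.29). SLC30A1, a zinc exporter, had 500 and 514 reads (0.01), and ATF3, a stress-induced factor, had 30 and 92 (1.57). With these genes counted in, the run would hold more exceptions to its lower level than SMYD2 and BATF3. Just under the read minimum lay ZC3H11B with 32 and 14 reads and MFSD4A with 27 and 3, and just over it lay HLX with 68 reads in all, CDK18 with 73, TMEM81 with 83 and BATF3 with 86. Of the 68 genes, 5 had under 25 reads in 1 library, 3 of them (HLX, DUSP10 and BATF3) on the higher side and 2 (CDK18 and SPATA17) on the lower, and these passed the minimum through the library in which they were high.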

How the data were processed

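RNA from 1 parental and 1 CARM1 KO culture of A1847 cells was sequenced in 75 bp read pairs. The authors mapped the read pairs against hg19 (bowtie2), ran RSEM (version 1.2.3 in the submitters' processing notes) over Ensembl genes, and deposited the resulting estimated counts, whole numbers with no normalization. The Ensembl release and the use of strand are not given in the sources used here. Reads that several genes share are split among them by RSEM, so counts of near-identical copies are uncertain.

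Identifiers were matched to GENCODE on GRCh37, which held 55501 of 57736. IKBKE and RASSF5, both in a role list, were not matched and are not analysed here. Counts were scaled with TMM in edgeR 4.0.16 (R 4.3.3), and 0.5 read was added before log2. A group of 1 library has no replicate spread, so the quasi-likelihood test was not fitted and no p-value is given. Intervals are exact Clopper-Pearson 95% binomial intervals (scipy 1.17.1), and sequencing reads are not independent molecules, so they cover counting error only. Fold limits were 1.5 and 3, the latter as in the study's methods. Edges were fitted by dynamic programming with least absolute deviations, 50 flanking genes on each side, at least 8 genes per stretch, and edges added, up to 8, until 1 more lowered the summed deviation by under 3%. The steps were also run on simulated data, with a longer stretch and less spread than in these libraries. That run therefore cannot vouch for the stretch of 8 genes. Exonic bases of all transcripts gave the levels per kilobase. Role groups were lists of the segment's genes sorted loosely by textbook function, and NEK2 and PFKFB2 are each in 2 of them.

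Genes named are the 10 lowest and 6 highest, the 4 with most reads in each role group, and the neighbours of edges, ends and the read minimum. The others named (the members of a run, pair or list, the genes left out and the noncoding genes) were chosen after their values were seen. The genes, the lists and the tests were chosen with earlier results of these data known. Alternatives were other scalings (library size, upper quartile and the size factors of DESeq2 1.42.0), prior counts of 2 and 5, read minimums of 10, 200 and 1000, the left-out genes put back, genes without exon overlap, and other settings of the edge fit.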

Additional observations from a re-analysis of the deposited data

How the results depend on the processing

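Under the other scalings, prior counts of 2 and 5, read minimums of 10 and 200 and the left-out genes put back, the median of the genes stayed between -0.83 and -0.74. Over 1.5-fold lower were 36 to 43 genes and over 1.5-fold higher 11 to 16. Over 3-fold lower were 10 to 13 and over 3-fold higher 9 to 12. Among the 43 genes without exon overlap, 24 were over 1.5-fold lower, 7 over 1.5-fold higher and 6 over 3-fold higher, with a median of -1.06. Among the 40 genes with at least 1000 reads, a minimum chosen after seeing the data, 2 were over 1.5-fold higher, 7 over 3-fold lower and 1 over 3-fold higher, with a median of -1.04. Fewer genes were counted in both settings. The median of all protein-coding genes was -0.01 with library size only and 0.07 with DESeq2 size factors. The other scalings shift every value alike, so they could not change the edges. The fit placed 2 edges in most settings, 3 at 10 reads or more, 4 with least squares and 1 with 100 flanking genes on each side, and their positions moved as described above. The cause was not tested. No library could be left out. No paired analysis was possible because each group has 1 library. Depth limits the genes under 200 reads, whose intervals had a median half-width of 0.73 on the log2 scale, against 0.08 at 3000 reads or more.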
